A study of Phanerodontia chrysosporium with 8 samples.

Results

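A set of 32 gene models of the white-rot fungus Phanerodontia chrysosporium was near silent in vegetative mycelium and expressed through fruiting. The members were chosen by their levels in all 8 libraries, read from a deposited matrix of log2 RPKM (read counts divided by model length and by library size, on a log2 scale) that holds 12746 of the 13602 gene models. A member had a value below 0, that is under 1 RPKM, in every mycelium library and at least 1, that is 2 RPKM, in both young fruiting body libraries. The median of the fruiting body libraries (F) was also at least 1, and F lay within 1 of the mean of the young fruiting bodies (Y). These values chose the members, so the rise from mycelium and the steadiness between the fruiting stages are descriptions and were not tested on the set. When the rule was applied to unique reads, a few other models entered and 30 of the 32 remained. The exceptions, models 2991383 and 2634498, rest on reads that map to more than 1 place and are described separately.

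In basidiomycetes such as this species, hyphae of the vegetative mycelium aggregate into initials, which grow and differentiate into a fruiting body that bears and sheds basidiospores. The fruiting body of P. chrysosporium is a thin crust on its substrate. Genes of this phase are known in other mushroom-forming fungi to include those for cell wall remodelling, surface proteins and meiosis. The files used here pair the model identifiers with no gene name or product, so the members are described by identifier, without a role.

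Polyadenylated RNA of strain RP-78 was sequenced in 8 libraries, 3 of vegetative mycelium, 2 of young fruiting body and 3 of fruiting body. Cultures of all groups were grown on a rich malt extract, peptone and yeast extract agar with a cellophane cover, 7 days long in darkness and 37 °C, and fruiting took place in a humid chamber at 25 °C under dim light. Young fruiting bodies were initials forming a compact mat with a clear border, and fruiting bodies were taken when spore release had begun. If the mycelium was harvested before the move, stage, temperature, light and age cannot be told apart. The libraries of a stage are called biological replicates, with no more said of separate cultures, so any p-value reflects only how these samples spread. In whole tissue, fewer cells expressing a gene and less RNA per cell cannot be told apart. Unique gene reads numbered 16144543 to 35837246 per library, so 1 RPKM in a model of 1 kb corresponded to 16.2 to 33.3 reads, and intervals given here cover counting error only. All mycelium and young fruiting body libraries and fruiting body replicate 2 shared a flowcell, whereas fruiting body replicates 1 and 3 were run on another. Fruiting body replicate 3 differed from the other fruiting body libraries, and values are given with and without it where it matters.

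In the deposited matrix, models below 0 in every mycelium library were uncommon. They numbered 358 of 12746 (2.81%), and 192 of these were also below 0 in all 5 fruiting libraries. The matrix leaves out 856 models that lacked at least 5 total reads in at least 2 libraries. A model with very few reads at every stage is thus not counted, and both numbers depend on that filter. Both young fruiting body values reached 1 in 44 of the 358, F reached 1 in 47, and both conditions held in 39, of which 32 also met the limit on the difference between the stages. The opposite pattern, at least 1 in all 3 mycelium libraries and below 0 in all 5 fruiting libraries, was found in 6 models. Its nearest counterpart, below 0 in all 3 mycelium libraries and at least 1 in all 5 fruiting libraries, was found in 36. The first asks for silence in 5 libraries and the second in 3, so the counts are not read against each other.

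**Figure D1:**
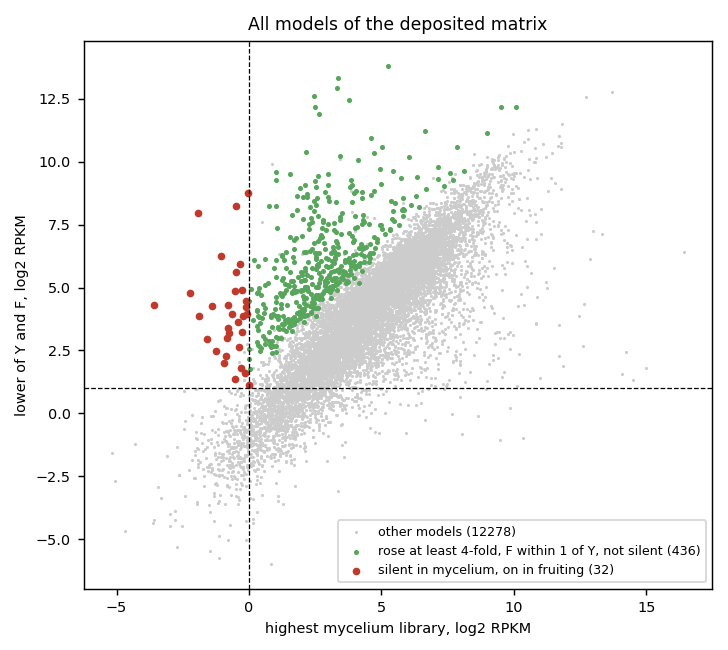
Each point is 1 of the 12746 models of the deposited matrix, with its highest mycelium value on the x axis and the lower of Y (mean of young fruiting bodies) and F (median of fruiting bodies) on the y axis, both in log2 RPKM. The 32 members lie left of 0 and above 1 by the rule, and the 436 comparison models lie to their right. Those met the same conditions in the fruiting stages, including F within 1 of Y, with Y and F at least 4-fold above the mycelium mean, and were not below 0 in every mycelium library.

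Values lay close to the silent threshold on both of its sides. The member nearest to it, model 2634498, had a highest mycelium value of -0.006, and model 5676, which missed on this condition alone, had 0.005. In all, 10529 models met the other conditions and missed this. On the young fruiting body side the nearest member was model 8926 at 1.203, and the nearest model outside was 3039883 at 0.758. For F the nearest member was again model 2634498, at 1.108, against 0.824 in model 1192418, the single model that missed this condition alone. The largest absolute difference of F and Y among members was 0.856 in model 1706125, and the smallest among the 7 models that missed on this condition alone was 1.159 in model 2988701.

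The levels reached in fruiting spanned over 2 orders of magnitude. Over the 31 members with unique reads, the mean RPKM of the 5 fruiting libraries ranged from 1.08 to 489.5, with a median of 15.7. It was at least 100 in 2 members, 10 to 100 in 18 and under 10 in 11. In mycelium the mean ranged from 0.0185 to 0.800 RPKM, with a median of 0.419. On the deposited scale the median over the 32 members was -1.23 in mycelium, 3.95 for Y and 4.20 for F, against 4.33, 4.41 and 4.45 over all 12746 models. By the rule the members started far below the median level of all models, and their own median in fruiting was near it.

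**Figure D2:**
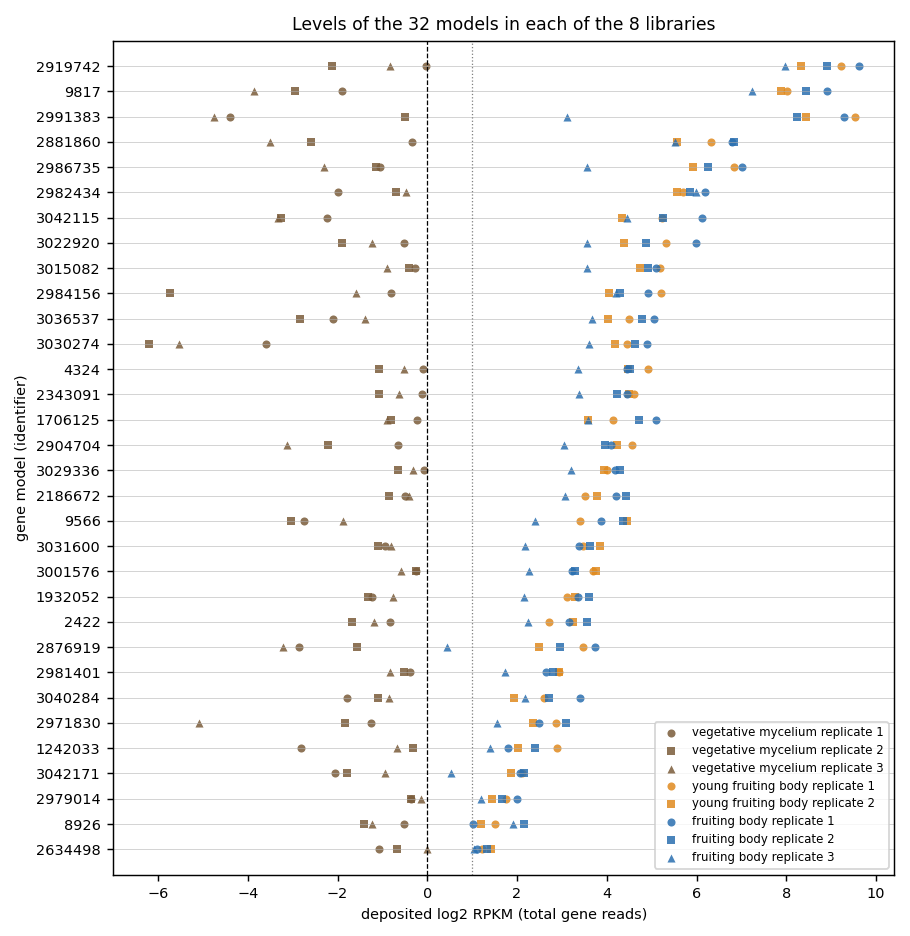
Deposited log2 RPKM of the 32 members (rows, ordered by their mean over the 5 fruiting libraries) in each of the 8 libraries, with the silent threshold at 0 (dashed) and the on threshold at 1 (dotted). Models 2919742, 9817 and 2991383 are at the top, and fruiting body replicate 3 is the lowest fruiting body library in 30 of the 32 rows.

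Summed over the set, unique reads came to 20.5, 15.8 and 19.9 CPM (counts scaled to library size) in mycelium replicates 1, 2 and 3 and to 1167 and 858 CPM in the young fruiting bodies. Fruiting body replicates 1, 2 and 3 followed with 1360, 1093 and 589 CPM. The lowest fruiting library was far above the highest mycelium library, and fruiting body replicate 2 lay within the range of the young fruiting bodies. The rule chose members by these levels, so the gap and the likeness of the fruiting stages are largely set by it. The stage means were 18.7 ± 2.56 (SD, n = 3), 1013 ± 219 (SD, n = 2) and 1014 ± 391 (SD, n = 3) CPM. Models 2919742 and 9817 gave 44.2% of these reads in the fruiting libraries. Without them the sum was 15.6 to 19.8 CPM in mycelium. It was 639 and 531 CPM at the young stage and 681, 634 and 324 CPM at the later stage.

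Of the 32 members, 31 passed the filter on low counts, and all 31 were called higher at the young fruiting body stage than in mycelium (adjusted p below 0.05 by Benjamini-Hochberg, quasi-likelihood test of edgeR), where 15.0% of the 12510 models tested were called higher. All 31 were also called higher in fruiting bodies than in mycelium, where 18.4% of models were. The counts behind these shares of all models, 1882 and 2296, moved by over 1.5 times in some alternatives. The rule used these contrasts, and both use the same mycelium libraries, so nothing is read from these counts. The median fitted log2 fold change over the 31 was 5.17 and 4.75 in these comparisons, against 0.0 and 0.05 over all models tested. Between fruiting body and young fruiting body, which the rule limits, 0 of 31 members were called (edgeR), as were 0% of the 12510 models, and the members' fitted log2 differences ranged from -0.73 to 0.70. At an unadjusted p below 0.05 there were 987 of 12510 models and 1 of 31 members, model 3001576. DESeq2 called 235 models and 0 members, and limma-trend 0 models and 0 members. Without fruiting body replicate 3, edgeR called 81 models, 45 higher and 36 lower, and 0 members.

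Model 2919742 (720 bp) was the most abundant member. It stood at 0.940, 0.208 and 0.534 RPKM in mycelium replicates 1, 2 and 3 and at 598 and 323 RPKM in the young fruiting bodies. In fruiting body replicates 1, 2 and 3 it stood at 789, 485 and 252 RPKM. By deposited level it ranked 204 and 375 among the 12746 models in young fruiting body replicates 1 and 2 and 146, 260 and 498 in the fruiting bodies, against 12299 to 12641 in mycelium. Its mycelium libraries held 24 unique reads together. The ratio of unique reads scaled to library size was 997 for young fruiting bodies over mycelium (95% exact interval 670 to 1557) and 1049 for fruiting bodies (705 to 1638).

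Model 9817 (345 bp) had the lowest mycelium level among the 8 most abundant members. Its unique reads numbered 1, 1 and 0 in mycelium, 2459 and 1875 in young fruiting bodies and 2688, 2883 and 957 in fruiting bodies. In RPKM the fruiting libraries stood at 261 and 236 and at 478, 348 and 152. Each fruiting library held at least 957 reads where the mycelium libraries held 2 together, so the size of the rise is bounded only loosely, with a ratio of 3919 for fruiting bodies and an exact interval of 1085 to 32371.

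Model 2881860 (270 bp) stood at 0.684, 0.111 and 0 RPKM in mycelium, at 80.1 and 47.2 RPKM in young fruiting bodies and at 110.5, 115 and 45.8 RPKM in fruiting bodies. These mycelium values came from 3, 1 and 0 reads, and fruiting body replicate 3 again lay below the other fruiting bodies, close to the lower young fruiting body library. The ratio to mycelium was 309 (95% exact interval 120 to 1137) in young fruiting bodies and 438 (171 to 1611) in fruiting bodies.

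Model 2986735 (828 bp) stood at 0.446, 0.435 and 0.174 RPKM in mycelium, at 115 and 60.8 RPKM in young fruiting bodies and at 129.6, 76.9 and 11.8 RPKM in fruiting bodies. It had the widest range over the 5 fruiting libraries among members with unique reads, with the highest library 11.0 times the lowest, and fruiting body replicate 3 alone was low. Even there it lay far above every mycelium library.

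Model 2982434 (364 bp) showed the opposite evenness. It stood at 45.0 and 41.7 RPKM in young fruiting bodies and at 65.0, 51.8 and 54.7 RPKM in fruiting bodies, from 0.169, 0.330 and 0.660 RPKM in mycelium. Its range of 1.56 over the fruiting libraries was the narrowest of the set, and fruiting body replicate 3 was not its lowest fruiting library. Of its total reads 12.3% were not unique.

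Model 3042115 (722 bp) rose from 0.170, 0.0831 and 0.0665 RPKM, which were 2, 2 and 1 reads, to 37.7 and 20.1 RPKM in young fruiting bodies and 70.1, 38.1 and 21.8 RPKM in fruiting bodies. Model 3022920 (393 bp) rose from 0.626, 0.229 and 0.367 RPKM to 39.9 and 20.8 RPKM, and stood at 63.6, 29.3 and 11.8 RPKM in fruiting bodies. Both varied by more than 3 times over the fruiting libraries, with fruiting body replicate 1 the highest in each. Model 3015082 (1213 bp), the last of the 8 most abundant, stood at 0.812, 0.668 and 0.515 RPKM in mycelium, 34.4 and 25.0 RPKM in young fruiting bodies and 31.8, 28.3 and 11.0 RPKM in fruiting bodies.

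**Figure D3:**
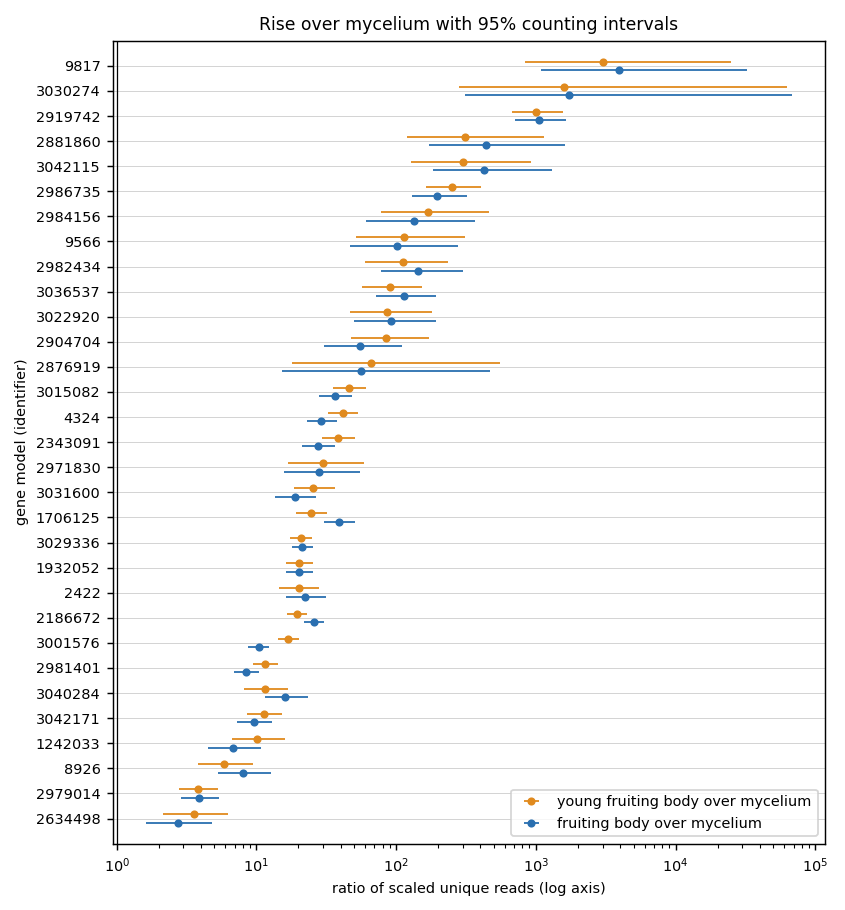
Ratio of scaled unique reads over mycelium, for both fruiting stages, of the 31 members with unique reads, on a log axis, with 95% exact intervals for counting error. The ratios run from 3.60 and 2.74 in model 2634498 to 3034 and 3919 in model 9817, and the intervals widen where mycelium held few reads.

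The sizes of the rise varied among members by about 3 orders of magnitude. The ratio of young fruiting bodies to mycelium had a median of 38.3 and was at least 16 in 24 of 31 members and at least 100 in 9. For fruiting bodies the median was 29.2, with 24 and 10 members past the same limits. How far a member was silent differed as well. In 15 of 31 members the upper 95% exact limit on the mycelium level was under 1 RPKM in all 3 libraries, while in the other 16 at least 1 library allowed 1 RPKM or more by counting error. At most 3 unique reads were counted in the mycelium libraries together in 3 members, which were models 9817, 2876919 and 3030274. Model 3030274 (1107 bp), named after its values were seen, had 1, 0 and 0 reads in mycelium, 664 and 467 in young fruiting bodies and 535, 662 and 247 in fruiting bodies. Its ratio for young fruiting bodies was 1584, with an exact interval of 284 to 62606.

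In 29 of 31 members the lower limit of every fruiting library lay above the upper limit of every mycelium library. The exceptions were models 2876919 and 2634498. The rule chose members by these levels, so this separation is largely set by it. The share over all models was not computed, and nothing is read from the count. Model 2876919 (222 bp), the shortest member, had 0, 2 and 0 unique reads in mycelium, 67 and 28 in young fruiting bodies and 48, 41 and 5 in fruiting bodies. Its fruiting body level therefore rested on replicates 1 and 2, at 13.3 and 7.68 RPKM, against 1.23 RPKM in replicate 3.

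Model 2979014 (980 bp) was the member with the smallest rise among those whose reads were all unique. It stood at 0.754, 0.766 and 0.882 RPKM in mycelium, 3.37 and 2.71 RPKM in young fruiting bodies and 3.95, 3.18 and 2.29 RPKM in fruiting bodies. All its fruiting libraries lay above all its mycelium libraries, which the rule favours, while the 2 fruiting stages overlapped. The ratio to mycelium was 3.84 (95% exact interval 2.81 to 5.34) in young fruiting bodies and 3.91 (2.87 to 5.39) in fruiting bodies. It is an example of a member near the silent threshold that reached only a few RPKM.

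Long members had enough reads in mycelium to show a low but steady signal. Model 2186672 (3413 bp), the longest, held 39, 63 and 53 unique reads in mycelium, or 0.703, 0.554 and 0.746 RPKM. It stood at 11.6 and 13.7 RPKM in young fruiting bodies and at 18.6, 21.6 and 8.39 RPKM in fruiting bodies. Model 1932052 (2804 bp) stood at 0.417, 0.396 and 0.582 RPKM in mycelium, 8.71 and 9.83 RPKM in young fruiting bodies and 10.3, 12.2 and 4.45 RPKM in fruiting bodies. Both had a trace level in all 3 mycelium libraries and were at 0 in none of them. Model 3001576 (2676 bp) stood at 0.828, 0.841 and 0.664 RPKM in mycelium, 12.9 and 13.6 RPKM in young fruiting bodies and 9.36, 9.85 and 4.82 RPKM in fruiting bodies. All 3 of its fruiting body libraries lay below both young fruiting body libraries. Model 3029336 (2592 bp), among the 3 members with the narrowest range in fruiting, stood at 0.950, 0.637 and 0.797 RPKM in mycelium. It stood at 16.1 and 15.3 RPKM in young fruiting bodies and at 18.1, 19.8 and 9.28 RPKM in fruiting bodies.

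Length itself was not used by the rule. The members measured 222 to 3413 bp, with a median of 909 bp against 1221 bp over the matrix and 1242 bp over 436 comparison models. These met the same conditions in the fruiting stages, including F within 1 of Y, stood at least 4-fold above the mycelium mean in both, and were not below 0 in every mycelium library. Models that rose as much but changed more between the fruiting stages are outside this group. Models of at most 400 bp made up 5 of the 32 members (15.6%), 6.88% of the 436 models and 5.23% of the matrix. In a short model 1 RPKM is few reads, so its mycelium value is the less certain. For model 2876919 it corresponded to 3.61 to 7.40 unique reads in the mycelium libraries.

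Reads that were not unique touched more members than models in general. Of the 32 members, 8 (25.0%) had any such read, against 18.6% of the 436 models and 15.4% of the matrix. They made up over 5% of total reads in 6 members (18.8%), 5.96% of the 436 models and 4.50% of the matrix. These are shares of models, which are not replicates, and the difference was not tested.

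**Figure D4:**
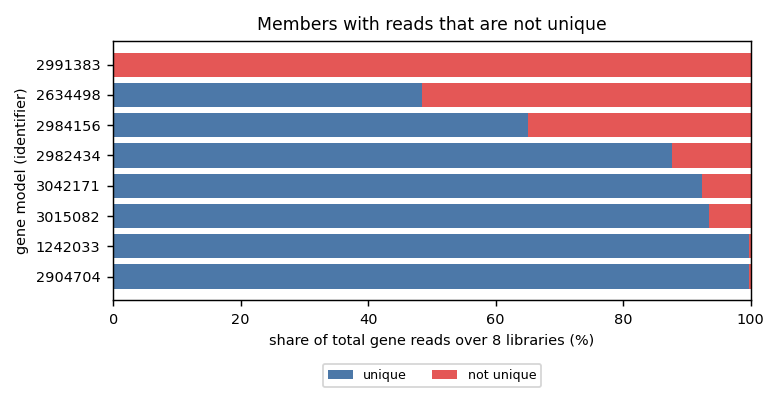
Share of total gene reads over the 8 libraries that were unique (blue) or not unique (red) in the 8 members with any read that was not unique. Model 2991383 had no unique read, and 51.6% and 34.9% of the reads of models 2634498 and 2984156 were not unique.

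Model 2991383 (648 bp) had 0 unique reads in every library. Its total reads numbered 0, 15 and 0 in mycelium, 13250 and 5181 in young fruiting bodies and 6593, 4702 and 103 in fruiting bodies. The deposited log2 RPKM was -4.41, -0.49 and -4.76 in mycelium, 9.54 and 8.44 in young fruiting bodies and 9.28, 8.23 and 3.12 in fruiting bodies. Young fruiting body replicate 1 was the highest, and fruiting body replicate 3 lay 5.64 below the mean of replicates 1 and 2, the largest such gap in the set. By deposited level it ranked 147 among all models in young fruiting body replicate 1 and 9144 in fruiting body replicate 3. The files do not say with which other sequence these reads are shared, so the level cannot be assigned to this model.

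Model 2634498 (838 bp) entered the set through such reads. Its unique reads numbered 3, 12 and 6 in mycelium, 29 and 25 in young fruiting bodies and 14, 26 and 8 in fruiting bodies. Its unique level was 1.27 and 1.30 RPKM in young fruiting bodies, under the 2 RPKM that the rule asks for, and 1.03, 1.29 and 0.522 RPKM in fruiting bodies. Mycelium stood at 0.220, 0.430 and 0.344 RPKM. All its fruiting libraries lay above all its mycelium libraries, but the gap between the highest mycelium library and fruiting body replicate 3 was small. The exact limits for counting error overlapped. The highest upper limit in mycelium was 0.751 RPKM and the lowest lower limit in fruiting was 0.225 RPKM. The values of the young fruiting bodies and fruiting bodies also overlapped. Its fitted log2 fold change over mycelium was 1.88 ± 0.49 at the young stage and 1.46 ± 0.47 at the later stage (SE, edgeR), the smallest of the 31, and leaving out any single library other than fruiting body replicate 3 lost at least 1 of its calls.

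Model 2984156 (797 bp) kept its pattern on unique reads. They numbered 3, 0 and 3 in mycelium, 534 and 193 in young fruiting bodies and 239, 253 and 175 in fruiting bodies. In RPKM these were 0.232, 0 and 0.181, then 24.6 and 10.5, then 18.4, 13.2 and 12.0, so that all fruiting libraries were far above mycelium.

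Fruiting body replicate 3 was below replicates 1 and 2 in 30 of 32 members. The exceptions were models 2982434 and 8926, the second named after its values were seen, with 1.98, 4.47 and 3.79 RPKM in fruiting body replicates 1, 2 and 3. The difference of replicate 3 from the mean of replicates 1 and 2 had a median of -1.24 on the deposited log2 scale and ranged from -5.64 to 0.34. The 436 comparison models, which like the set were limited to F within 1 of Y, had a median of -1.11, and replicate 3 was lowest in 89.9% of them. Over the whole matrix the median was 0.03, with replicate 3 lowest in 41.4%. Replicate 3 was thus low over the 436 models as well, with a median close to that of the set.

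**Figure D5:**
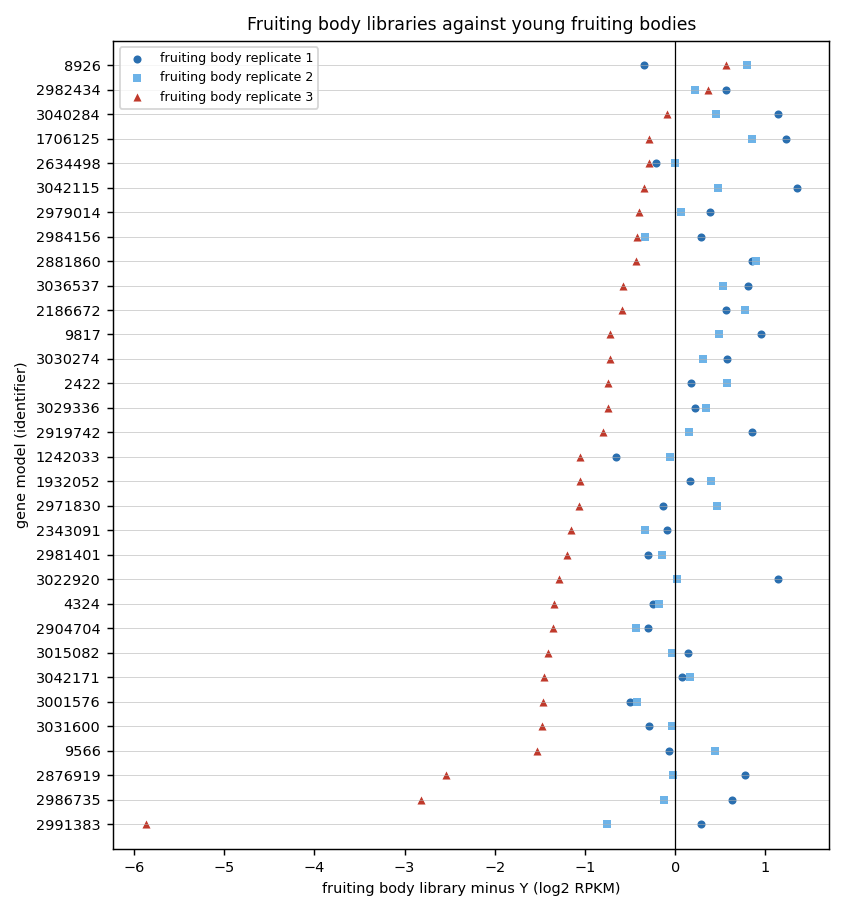
Difference of each fruiting body library from Y, the mean of the young fruiting bodies, in deposited log2 RPKM, for the 32 members ordered by replicate 3. Replicates 1 and 2 scatter around 0, while replicate 3 lies below 0 in 30 members and furthest in models 2991383, 2986735 and 2876919.

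Even so, replicate 3 reached at least 1 on the deposited scale, along with the other 4 fruiting libraries, in 30 of the 32. The exceptions were models 2876919, at 0.43, and 3042171, at 0.53, the second named after its values were seen. The rule asks for at least 1 in both young fruiting body libraries and in F, so this count is largely set by it. The share over all models was not computed, and nothing is read from the count. The median rise over mycelium was 4.04 in replicate 3 and 5.53 in the mean of replicates 1 and 2. Over the 5 fruiting libraries the highest library was at a median 2.79 times the lowest among the 31 members with unique reads, and 1.81 times without replicate 3. Members that kept within 2-fold numbered 2 of 31 with replicate 3 and 17 without it. The rule limits the difference between the stages and the shares over all models were not computed, so these are descriptions only.

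Between the fruiting stages no direction prevailed in the set, within the limit that the rule sets. F was above Y in 17 of 32 members, and the difference had a median of 0.05 and ranged from -0.76 to 0.86. Young fruiting body replicate 1 was above replicate 2 in 24 of 32 members (75.0%), with a median difference of 0.33, against 74.8% of the 436 models and 52.0% of the matrix. Among the mycelium libraries, replicate 1 held the highest value in 18 of 32 members, replicate 2 in 4 and replicate 3 in 10. The corresponding shares were 51.8%, 21.3% and 26.8% in the 436 models and 42.7%, 30.2% and 27.0% in the matrix. Mycelium replicate 2, the deepest library, had 2 of the 31 members with unique reads at 0 reads, replicate 1 had 1 and replicate 3 had 5.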

How the data were processed

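Unique and total gene reads and the length of each of 13602 gene models came from 1 deposited file per library, as raw counts per the file headers. The deposited matrix holds log2 values that equal log2 of total gene reads plus 0.5, divided by length and by a scaled library size, and were taken as the authors' log2 RPKM. It holds exactly the 12746 models with at least 5 total reads in at least 2 libraries. In the submitters' processing notes limma 3.18.13, edgeR 3.4.2 and R 3.0.2 are named with no role, and the aligner and genome release are not given in the sources used here. Labels gave stage, replicate and flowcell. Strand is not kept by the kit, so models that overlap on opposite strands may share reads.

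RPKM in the text was computed from unique reads, length and library sizes scaled by TMM. edgeR 4.0.16 in R 4.3.3 was fitted to unique reads of all 8 libraries (filterByExpr, TMM, robust quasi-likelihood fit, stage as the only term), with adjusted p-values over 12510 models. It was also run on counts simulated from its own fitted dispersions, which cannot show the effect of an outlying library or the flowcell. Exact intervals of count ratios (95%, Clopper-Pearson) and of counts (95%, Poisson) cover counting error only. All replicate pairs differed by more than sampling noise, with 69.2 to 322 of chi-square for each degree of freedom. Alternatives were DESeq2 1.42.0, its size factors in edgeR, no low-count filter, total reads, limma-trend (limma 3.58.1), the replicate block, the flowcell, each library left out, and other forms of the rule.

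The members and lists were chosen with earlier results of these data known. Named members are the 8 most abundant, up to 6 with 0 unique reads in mycelium, the 3 of widest and 3 of narrowest range in fruiting, the 3 longest, the 3 shortest, the 3 with most reads that are not unique, and the nearest models to each threshold. Others are marked as named after their values were seen. Product names and sequences were not used here.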

Additional observations from a re-analysis of the deposited data

Results flagged for a closer look

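Model 2991383 drew attention as a signal in reads that the counts of unique reads do not use. It had 13250 total reads in young fruiting body replicate 1 and 0 unique reads in every library, while total reads in mycelium reached at most 15. No other member had 0 unique reads in all 8 libraries. The source of these shared reads was not tested.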

How the results depend on the processing

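The number of models in the set depended most on the silent threshold: it was 32 with mycelium below 0, 8 with every mycelium value below -1 and 114 with every value below 1. Under the other forms of the rule that keep all libraries it ranged from 26, with both fruiting stages at least 2, to 39 without the limit on F minus Y. With unique reads in place of total reads 30 of the 32 were kept in each form tried, and models 2087621 and 2982432 were gained in each. These sets held 32 to 35 models, so some forms gained others as well. Of these forms 2, with the matrix's library sizes and without the offset, were chosen after seeing the data. So was the form that asks for at least 1 in all 5 fruiting libraries. With each library left out of the rule in turn the number ranged from 29 to 43, the highest without mycelium replicate 1, and it was 32 without fruiting body replicate 3, with 31 shared.

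Members called against mycelium numbered 31 of 31 tested at both fruiting stages. They ranged from 26 to 31 and from 30 to 31 with each library left out in turn, and from 30 to 32 under the other alternatives. The count of 26 came without young fruiting body replicate 1, which leaves 1 library in that stage, assumed to vary like the others. In fruiting body against young fruiting body the number was 0 throughout. Over all models, the 3250 calls in young fruiting body against mycelium became 1052 without young fruiting body replicate 1 and 5141 without fruiting body replicate 3, the lowest and highest counts with a library left out. Models called higher in fruiting body against mycelium, 2296 in all, came to 833 with the flowcell covariate. The number was 1402 when fruiting body replicate 1 was dropped, 1526 when replicate 2 was, and 1395, 1326 or 1396 when mycelium replicate 1, 2 or 3 was. Those called higher in young fruiting body against mycelium, 1882 in all, came to 1228 with the replicate block. Dropping young fruiting body replicate 1 or 2 gave 714 or 1099, and dropping mycelium replicate 1, 2 or 3 gave 1177, 1026 or 1166. With the replicate block 30 of 31 members were called against mycelium in each comparison. The numbers were not taken to pair the libraries, since not every same-numbered pair deviated together from its stage means: the correlations were -0.278, 0.193 and -0.102 between mycelium and fruiting body, 0.196 and 0.129 between mycelium and young fruiting body, and 0.141 and -0.093 between young fruiting body and fruiting body. For 32 fitted log2 fold changes of named members, 480 alternative fits gave 463 that kept the call, 17 that lost it and 0 that changed sign. Of the 17, 15 were of model 2634498, which lost a call with the replicate block, with the flowcell covariate and without each library but fruiting body replicate 3 (adjusted p 0.0564 to 0.163, edgeR). The others were 1 each of models 2876919 and 2979014 without young fruiting body replicate 1. The limit at a count of 0, taken as 3 reads, was 0.0900 to 0.185 CPM over the 8 libraries.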
